A study of Mus musculus with 8 samples.

Results

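Chromatin rich in histone H3.3 but outside the called H3.3K36M peaks was described in C3H10T1/2 cells, an established line of mesenchymal progenitors derived from C3H mouse embryos. The regions are bins of 10 kb in mouse build mm9 in which the HA ChIP-seq signal of tagged H3.3 was at least 2-fold above that of tagged H3.1, both in the lines with the K36M change and in the wild-type (WT) lines, and which no H3.3K36M peak overlapped. They numbered 10072 of the 245206 bins used, that is 100.72 Mb or 4.11% of 2452.1 Mb. Over all bins, 8.18% reached 2-fold in the K36M lines and 10.3% in the WT lines, and nothing is read from these shares. The bins were chosen by the ratios of H3.3 over H3.1 and by the absence of a peak, so neither is a finding, and the signal of all 4 libraries entered the choice. Levels and ratios are therefore given as descriptions, and the arrangement of the bins along the chromosomes is what the choice did not use directly.

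The 4 lines stably expressed FLAG-HA-tagged H3.3K36M, FLAG-HA-tagged wild-type H3.3, FLAG-HA-tagged H3.1K36M or FLAG-HA-tagged wild-type H3.1, at passage 10-15. All carry the tag, and HA ChIP reads the tagged histone and not the cell's own H3. The promoter behind the transgenes, the level of each tagged histone and whether a line is a single clone are not given in the sources used here. Each line gave 1 HA library, and the 4 input libraries were not used here. Both H3.3 ChIP titles start with the name of an H3.1 line although the genotype says H3.3, and the genotype was followed. An antibody against Cbx2 appears in the protocol text of all samples and an HA antibody in the descriptions, and the descriptions were used. Since a line has 1 library, differences between lines could not be set against replicates, no test was made, and intervals reflect counting error alone.

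H3.1 and H3.3 are versions of histone H3 that differ at a few residues. H3.1 is placed on DNA mainly during replication by the CAF-1 chaperone. H3.3 is also placed outside replication, by HIRA at active genes and regulatory elements and by ATRX and DAXX at repeats, telomeres and pericentric chromatin. The K36M change replaces the lysine at which SETD2 and the NSD enzymes methylate H3, it inhibits these enzymes, and in H3.3 it is the characteristic mutation of chondroblastoma, a cartilage tumour of bone.

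Signal was read as RPM, that is reads scaled to the library total, in each 10 kb bin. The libraries held 38783917 reads (H3.3K36M), 46749609 (H3.3WT), 41705735 (H3.1K36M) and 35487141 (H3.1WT). Their medians over all bins were 3.004, 2.77, 3.64 and 3.65 RPM, in the same order. At this depth the peak-free H3.3-rich bins held medians of 337, 409, 125 and 107.5 reads.

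The peak-free H3.3-rich bins carried clear H3.3 enrichment and slightly low H3.1. Their median HA signal was 8.73 RPM (H3.3K36M) and 8.79 RPM (H3.3WT), against 3.01 RPM (H3.1K36M) and 3.04 RPM (H3.1WT). These medians were 2.91 and 3.17 times the median bin of the H3.3K36M and H3.3WT libraries, against 0.828 and 0.833 times that of the H3.1K36M and H3.1WT libraries. Between the 10th and 90th percentiles the signal ranged over 5.96 to 13.1 RPM (H3.3K36M) and 6.15 to 12.8 RPM (H3.3WT). The same ranges were 2.07 to 4.27 RPM (H3.1K36M) and 2.04 to 4.44 RPM (H3.1WT), below those of H3.3 in both states.

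Most of these bins were high in H3.3 against the rest of the same library, and not only low in H3.1. H3.3 was at least 2-fold above the library median in both H3.3 libraries in 8900 bins, or 88.4%. Taken singly, the libraries gave 89.7% (H3.3K36M) and 95.0% (H3.3WT), against 15.4% and 23.1% of all bins. H3.1 was below the library median in both H3.1 libraries in 6709 bins, or 66.6%. Singly, the shares were 75.7% (H3.1K36M) and 73.1% (H3.1WT), against 49.2% and 49.7% of all bins. The choice asks for H3.3 well above H3.1, which favours all of these shares. In 1794 bins, or 17.8%, H3.1 was at or above the median in both H3.1 libraries. The median H3.3 there was 11.1 RPM (H3.3K36M) and 11.4 RPM (H3.3WT), higher than in the set as a whole. The choice fixes this in part, since a bin with more H3.1 needs more H3.3 to reach 2-fold. Bins of the opposite kind were few. H3.3 was below the library median in both H3.3 libraries in 37 bins, whose medians were 1.94 RPM (H3.3K36M) and 1.94 RPM (H3.3WT), against 0.578 RPM (H3.1K36M) and 0.509 RPM (H3.1WT). Each H3.3 library alone had 49.9% of all bins below its median, and the choice selects against such bins.

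The peak-free bins held a large part of the tagged H3.3 that lay in H3.3-rich chromatin. Of the RPM in the 245206 bins used, they took 9.49% in the H3.3K36M library and 9.51% in the H3.3WT library, against 3.20% in H3.1K36M and 3.26% in H3.1WT. The 5167 H3.3-rich bins that did hold a peak took 6.34% (H3.3K36M), 5.80% (H3.3WT), 1.78% (H3.1K36M) and 1.83% (H3.1WT). The peak-free bins thus made up 66.1% of the 15239 H3.3-rich bins and held more H3.3 signal in sum, with less per bin.

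**Figure D1:**
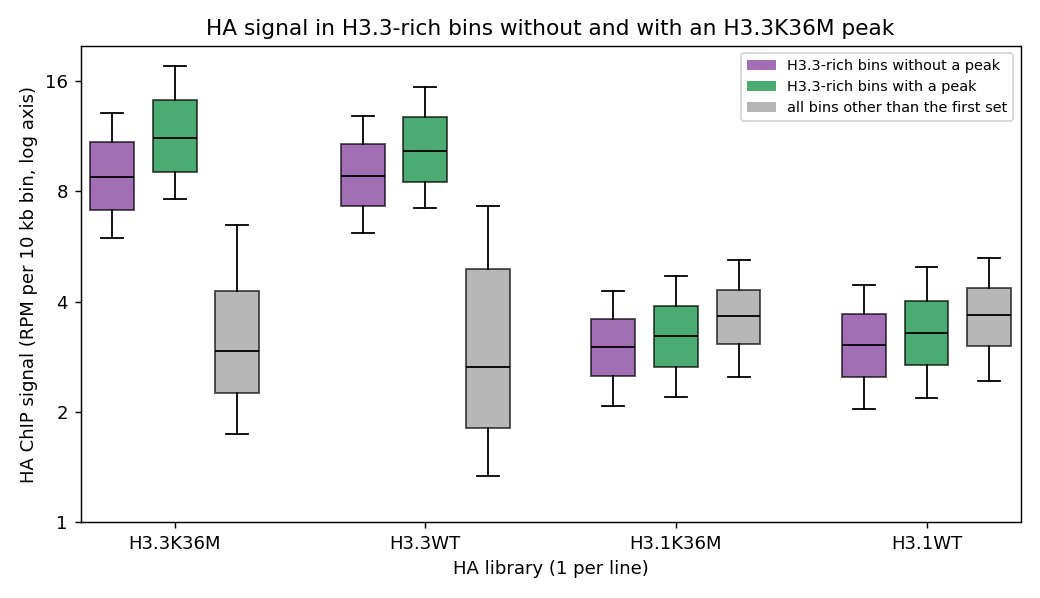
HA ChIP signal (RPM per 10 kb bin, log axis) in each of the 4 libraries, for H3.3-rich bins without a peak (purple), H3.3-rich bins with a peak (green) and all bins outside the first set (grey). Boxes span the quartiles with the median as a line and whiskers reach the 10th and 90th percentiles; in H3.3K36M the purple median is 8.73 RPM and the green one 11.2 RPM.

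H3.3-rich bins without and with a peak overlapped widely in signal. The median in H3.3K36M was 8.73 RPM in bins without a peak and 11.2 RPM in bins with one, and in H3.3WT it was 8.79 and 10.3 RPM. Of the bins without a peak, 2249 (22.3%) lay above the median H3.3K36M signal of the bins with one. Of the bins with a peak, 1082 (20.9%) lay below the median of the bins without. The peak list is that of H3.3K36M, so a difference in that library is built into the choice. Per the deposited peak list, the 8375 H3.3K36M peaks covered 31.672 Mb with a median length of 2 kb. They filled a small part of the bins they fell in, a median of 3 kb of an H3.3-rich bin, and 487 of those bins (9.43%) were covered whole. A bin with a peak was thus typically mostly sequence outside the peak, and the levels compare 10 kb averages.

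The share of H3.3-rich bins without a peak fell with the level of H3.3. When the H3.3-rich bins were put into 10 classes of about equal size by H3.3K36M signal, 90.3% of the lowest class had no peak, against 26.5% of the highest. Classes by H3.3WT signal, a library other than the one the peaks are named for, gave 85.0% in the lowest class and 39.7% in the highest. The peaks are those of H3.3K36M, so a fall over its own classes is in part built in. The H3.3WT classes do not remove this, since H3.3K36M rose with them. Its medians in peak-free and peak bins were 5.91 and 6.94 RPM in the lowest H3.3WT class, and 13.8 and 17.0 RPM in the highest. The highest H3.3K36M class began at 14.8 RPM and still held 401 bins without a peak. Those 401 bins had medians of 15.8 RPM (H3.3K36M), 13.95 RPM (H3.3WT), 3.69 RPM (H3.1K36M) and 4.02 RPM (H3.1WT). The 1114 peak bins of that class had 17.3, 14.6, 3.49 and 3.74 RPM in the same libraries.

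At a given level of H3.3K36M the peak-free bins lay close to the peak bins in H3.3WT. Within the 10 classes the log2 ratio of their median H3.3WT signal to that of the peak bins lay between -0.06 and 0.08, with the peak-free bins higher in 8 classes. Their median H3.1WT was higher in 9 classes and their median H3.1K36M in 7.

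**Figure D2:**
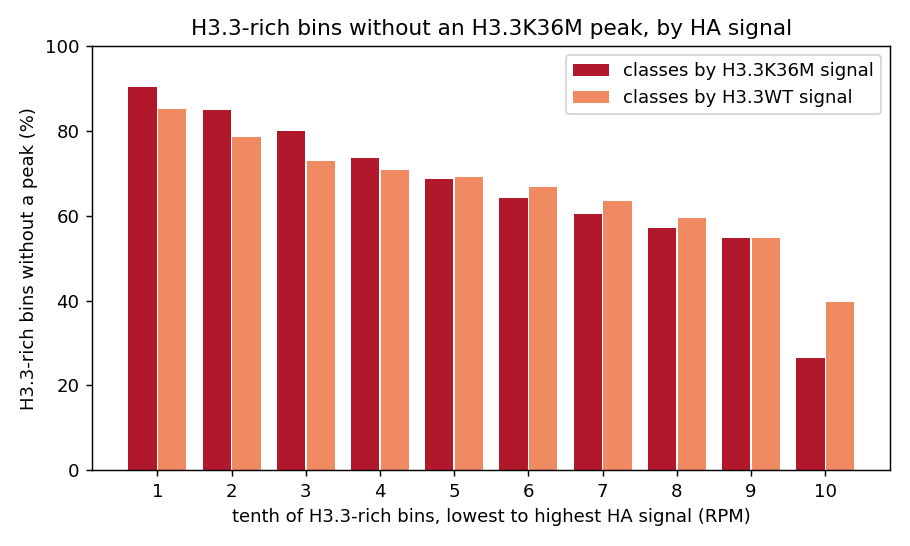
Share of H3.3-rich bins that no H3.3K36M peak overlaps (%), in 10 classes from lowest to highest HA signal (RPM), with classes made by H3.3K36M signal in dark red and by H3.3WT signal in orange. The share is 90.3% in the lowest and 26.5% in the highest H3.3K36M class, and 85.0% and 39.7% in the H3.3WT classes.

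Bins that were rich in H3.3 only in the WT lines held an H3.3K36M peak at a lower share than bins rich in both states or only in the K36M lines, and at a higher share than bins rich in neither. Of the 15239 bins at least 2-fold richer in H3.3 than in H3.1 in both states, 33.9% held a peak. Of the 4831 bins that reached 2-fold only in the K36M lines, 31.4% held one. Of the 10047 bins that reached it only in the WT lines, 7.14% did, and of the bins that reached it in neither, 1.40%. The peaks and the K36M ratio share the H3.3K36M library.

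At the edge of the choice, bins on either side of the threshold had similar signal. With a pseudocount of 0.1 RPM, the bin just inside at chr11:22840001-22850000 had 5.13 RPM (H3.3K36M), 6.21 RPM (H3.3WT), 2.39 RPM (H3.1K36M) and 3.06 RPM (H3.1WT). The bin just outside at chr7:119890001-119900000 had 6.19, 5.59, 2.99 and 2.75 RPM in the same libraries. The other bins just inside were chr1:196590001-196600000 and chr9:101060001-101070000, and the others just outside were chr4:44860001-44870000 and chr6:50280001-50290000. Counting intervals of the smaller H3.3 over H3.1 ratio reached below 2-fold in all 6.

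The highest ratios belonged to bins in which H3.1 was low. The top bin by the smaller of its ratios was chr6:31030001-31040000, with 18.4 RPM (H3.3K36M), 15.0 RPM (H3.3WT), 0.699 RPM (H3.1K36M) and 1.19 RPM (H3.1WT). H3.3K36M was 26.3 times H3.1K36M there (95% counting interval 18.2 to 39.6), and H3.3WT was 12.6 times H3.1WT (9.22 to 17.6). Its nearest peak lay 6.2 kb away. Next came chr3:141990001-142000000 with 16.2 (H3.3K36M), 13.5 (H3.3WT), 1.33 (H3.1K36M) and 1.16 RPM (H3.1WT), inside the longest run described below. A bin at chr5:114820001-114830000 had 12.1, 11.1, 1.08 and 1.08 RPM in the same order and lay 466.8 kb from the nearest peak. Of the 10 bins with the highest smaller ratio, the H3.1 signal lay between 0.675 and 2.04 RPM in both H3.1 libraries, below the median bin in every case. These bins were ranked on the same reads, which favours extreme values, and the intervals do not allow for that.

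Many of the bins lay in runs of touching bins, and the longest runs were broad H3.3 domains. The 10072 bins formed 6083 runs, of which 4114 were single bins holding 40.8% of the set. A further 252 runs of at least 50 kb held 1699 bins (16.9%), and 30 runs reached 100 kb. The longest spanned 170 kb. Longer runs had lower H3.1 and wider ratios. From single bins to runs of 10 or more bins, the median H3.1K36M signal was 3.11, 3.08, 2.96, 2.84 and 2.34 RPM in the classes of 1, 2, 3 to 4, 5 to 9 and 10 or more bins. The median H3.3K36M signal was 8.33, 8.88, 8.96, 9.30 and 9.25 RPM in the same classes. For H3.3WT it was 8.57, 8.88, 8.92, 9.09 and 8.71 RPM, so the longest class was not the highest in either H3.3 library. On the log2 scale, H3.3K36M over H3.1K36M had a median of 1.33 in single bins and 1.72 in the longest class, and H3.3WT over H3.1WT one of 1.36 and 1.68. A run needs each of its bins to pass the threshold, so run length and ratio are tied by the choice.

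Both runs of 170 kb averaged high H3.3 and H3.1 below the median bin. At chr3:141890001-142060000 the mean signal per bin was 12.3 RPM (H3.3K36M), 9.97 RPM (H3.3WT), 1.75 RPM (H3.1K36M) and 1.998 RPM (H3.1WT). H3.3K36M was 7.06 times H3.1K36M there (6.65 to 7.51) and H3.3WT was 4.99 times H3.1WT (4.70 to 5.31). A peak lay 2.2 kb from this run, though none overlapped it. At chr11:59470001-59640000 the means were 9.94 (H3.3K36M), 10.6 (H3.3WT), 3.3003 (H3.1K36M) and 3.55 RPM (H3.1WT), with ratios of 3.01 (2.87 to 3.16) in the K36M lines and 2.996 (2.86 to 3.14) in the WT lines. The nearest peak was 53.8 kb away. The third, chr14:87290001-87450000, had lower H3.3, with 5.95 (H3.3K36M), 6.29 (H3.3WT), 2.22 (H3.1K36M) and 2.37 RPM (H3.1WT).

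The other 7 of the 10 longest runs spanned 140 to 150 kb and differed in H3.3 level. H3.3K36M was highest at chr6:34600001-34750000, with 13.3 RPM against 11.3 RPM (H3.3WT), 2.17 RPM (H3.1K36M) and 2.60 RPM (H3.1WT). At chr17:74940001-75090000 H3.3K36M was lower, at 10.5 RPM, while H3.3WT was again 11.3 RPM, and H3.1 was 3.72 RPM (H3.1K36M) and 3.90 RPM (H3.1WT). The run at chr5:90650001-90800000 lay farthest from any peak of the 10, at 239.4 kb, and had 7.15 (H3.3K36M), 7.08 (H3.3WT), 1.85 (H3.1K36M) and 1.93 RPM (H3.1WT). The run at chr5:66870001-67010000 ended 0.2 kb from a peak and had 9.20, 8.10, 2.11 and 2.01 RPM in that order. In the other 3, chr2:18000001-18140000, chr3:27470001-27610000 and chr11:23230001-23370000, H3.3K36M was 8.67, 8.69 and 6.57 RPM and H3.3WT was 9.05, 7.21 and 7.39 RPM.

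**Figure D3:**
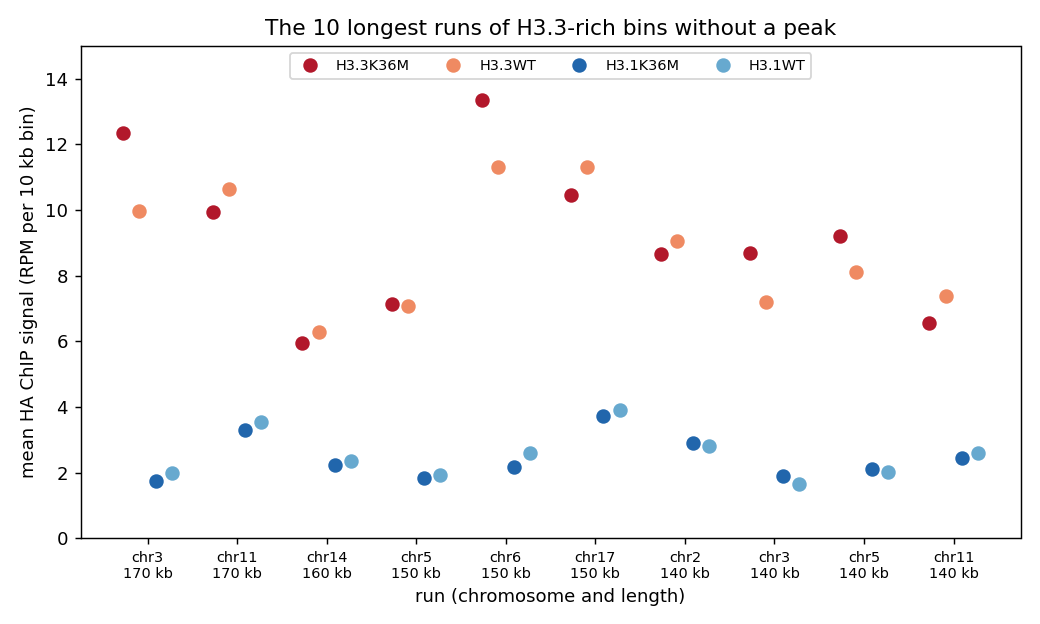
Mean HA ChIP signal (RPM per 10 kb bin) in each library for the 10 longest runs of H3.3-rich bins without a peak, ordered by length and named by chromosome and length. In every run both H3.3 points (red and orange) lie above both H3.1 points (blue), with H3.3K36M between 5.95 and 13.3 RPM.

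Most of the peak-free bins belonged to H3.3-rich stretches that held no peak at all. When H3.3-rich bins with and without a peak were joined, they formed 8498 stretches, and 4794 of these held no peak. Those stretches contained 7559 of the peak-free bins (75.05%). The other 2513 (24.95%) touched, directly or through H3.3-rich neighbours, an H3.3-rich bin with a peak. Bins with a peak that were not H3.3-rich were not joined. A stretch that held no peak could therefore still touch such a bin. The longest joined stretch was chr15:63910001-64220000, 310 kb with 19 peak-free bins and 12 peak bins, and it averaged 14.7 (H3.3K36M), 14.3 (H3.3WT), 2.90 (H3.1K36M) and 2.90 RPM (H3.1WT). A stretch of 300 kb at chr6:28420001-28720000 held 26 peak-free bins and 4 peak bins and averaged 8.32, 6.73, 2.37 and 2.25 RPM in the same order. Of the 71 stretches of at least 100 kb, 15 held no peak.

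The surroundings of the bins were raised in H3.3 as well. At 10 kb on either side the median was 7.30 and 7.33 RPM (H3.3K36M) and 7.65 and 7.63 RPM (H3.3WT), and at 50 kb it was 5.54 RPM on both sides in H3.3K36M and 6.19 and 6.17 RPM (H3.3WT). At 200 kb it was still 4.22 RPM (H3.3K36M) on both sides, and 4.82 and 4.86 RPM (H3.3WT), above the medians of all bins. H3.1 ran the other way, with 3.01 RPM (H3.1K36M) and 3.04 RPM (H3.1WT) at the bins and 3.81 and 3.79 RPM at 50 kb. The H3.3K36M signal was below the H3.3WT signal in the flanks and close to it at the bins themselves. The choice used both H3.3 libraries at the bins but not in the flanks, so nothing is read from this contrast. For bins with a peak the flanks were alike, with 5.93 RPM (H3.3K36M) and 6.62 RPM (H3.3WT) 50 kb to the left.

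Bins standing alone had neighbours with less H3.3, which the choice fixes in part, since a neighbour of such a bin either missed the threshold or held a peak. For the 4114 bins with no touching bin of the set, the neighbouring 10 kb held 5.83 and 5.85 RPM (H3.3K36M) and 6.54 and 6.56 RPM (H3.3WT), against 8.33 and 8.57 RPM in the bins themselves. These neighbours were still above the medians of all bins in both H3.3 libraries.

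**Figure D4:**
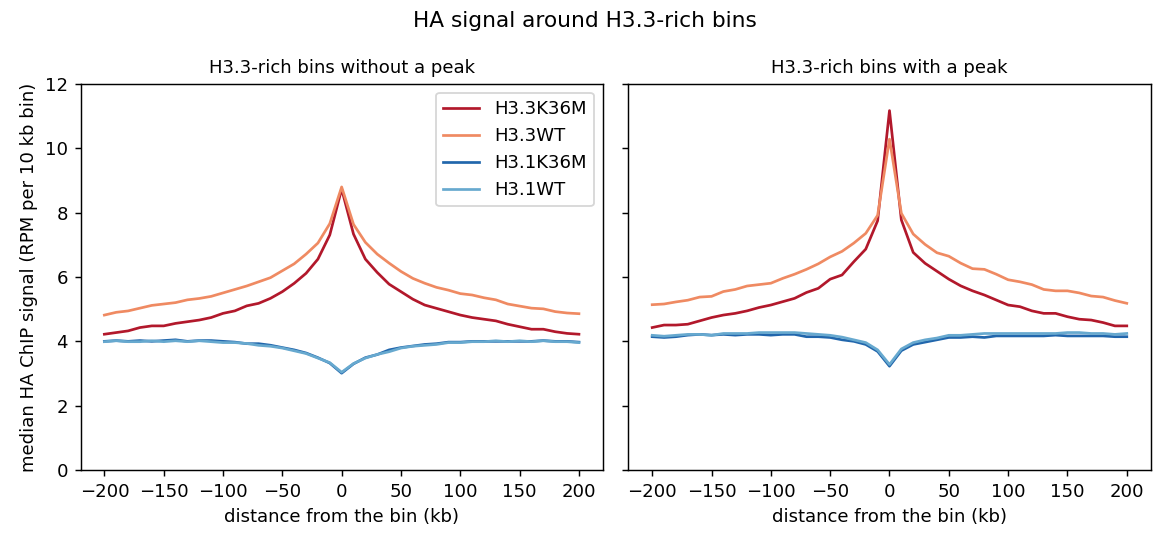
Median HA ChIP signal (RPM per 10 kb bin) of the 4 libraries against distance from the bin (kb), for H3.3-rich bins without a peak on the left and with a peak on the right. H3.3 falls from 8.73 RPM (H3.3K36M) and 8.79 RPM (H3.3WT) at the bins without a peak to 4.22 and 4.82 RPM at -200 kb, and H3.1 dips at the centre in both panels.

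The peak-free H3.3-rich bins lay near peaks more often than all bins without a peak, which include them, though most had none within 10 kb. The median distance to the nearest H3.3K36M peak was 43.8 kb, with quartiles of 15.2 and 113.6 kb, against 212.4 kb, with quartiles of 65.6 and 560.4 kb, for all 234793 bins without a peak. A peak lay within 10 kb of 1835 of the peak-free H3.3-rich bins (18.2%), against 5.52% of all bins without a peak. Of bins without a peak, 14.2% were H3.3-rich where the nearest peak was under 10 kb away, 9.98% at 10 to 50 kb, 4.97% at 50 to 200 kb and 1.20% at 200 kb or more. The H3.3 level of the peak-free H3.3-rich bins was lowest at 200 kb or more from a peak. In the classes under 10 kb, 10 to 50 kb, 50 to 200 kb and 200 kb or more, the median H3.3K36M signal was 9.35, 9.25, 8.50 and 7.46 RPM. The median H3.3WT signal was 8.93, 9.18, 8.79 and 7.77 RPM, highest at 10 to 50 kb. H3.1 was also lower at 200 kb or more, at 2.65 RPM (H3.1K36M) and 2.66 RPM (H3.1WT), against 3.13 and 3.14 RPM under 10 kb. The signal of all bins without a peak also moved with distance, at 5.62 RPM (H3.3K36M) and 6.24 RPM (H3.3WT) under 10 kb and 2.46 and 1.96 RPM at 200 kb or more, and its part was not tested.

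The bins lying over 1 Mb from any peak numbered 160 (1.59%), against 12.3% of all bins without a peak. All 5 of the farthest lay at the end of chromosome 7, where the peak list holds nothing for the last 8.03 Mb. Whether the list is complete there is not known, so neither these distances nor the lack of a peak in these bins is certain. Of these 5, chr7:152290001-152300000 had the strongest H3.3WT over H3.1WT, with 12.4 (H3.3K36M), 12.6 (H3.3WT), 3.62 (H3.1K36M) and 3.54 RPM (H3.1WT). The farthest, chr7:152480001-152490000, lay 7.98 Mb from a peak and had 9.09, 7.98, 4.43 and 3.91 RPM in that order.

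No peak-free H3.3-rich bin held an H3.1K36M peak either, per the deposited list of 73 such peaks. These peaks touched 83 of all bins (0.0338%), and 4 of the 5167 H3.3-rich bins with an H3.3K36M peak. At so low a share few would fall in the set, and the choice asks for H3.1K36M well below H3.3K36M. Nothing is therefore read from their absence.

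Between H3.3K36M and H3.3WT, the bins had nearly the same H3.3 level. On the log2 scale H3.3K36M over H3.3WT had a median of -0.014, and the 10th and 90th percentiles were -0.35 and 0.34. Over all bins the median was 0.10. With each ratio scaled by its median over bins, a shift of -0.11 for all bins, the 20166 bins then chosen had a median of -0.15. In the bins chosen with a pseudocount of 1 RPM the median was 0.014, so the lines cannot be ordered from it. The SD over the bins was 0.28, where counting error alone would give 0.11. H3.3K36M was at least 2-fold higher than H3.3WT in 7 of the bins, where 2.94% of all bins were, and at least 2-fold lower in 9, where 1.81% of all bins were. Both libraries entered the choice, which limits how far they can differ, so nothing is read from the low counts. After the same scaling, which enlarged the set to 20166 bins, 10 were 2-fold higher and 114 lower. In H3.3-rich bins with a peak the median was 0.13. For H3.1, H3.1K36M over H3.1WT had a median of -0.017 on the log2 scale, with an SD of 0.26 against 0.20 from counting error. H3.1K36M was at least 2-fold higher in 1 bin and lower in 6, where 0.0122% and 0.064% of all bins were.

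The bins at least 2-fold apart between H3.3K36M and H3.3WT lay on several chromosomes. The largest drop was at chr15:40480001-40490000, with 6.66 RPM (H3.3K36M) against 16.2 RPM (H3.3WT), and 2.92 RPM (H3.1K36M) against 3.14 RPM (H3.1WT). It was 2.43-fold lower (2.11 to 2.81) in H3.3K36M. Chromosome 15 held 3 of the 9 bins that were lower, the others of them being chr15:50090001-50100000 and chr15:50490001-50500000. It held 412 bins of the whole set, and its median log2 ratio over all bins was -0.20. The largest gain was at chr3:102310001-102320000, with 14.6 RPM (H3.3K36M) against 6.79 RPM (H3.3WT), and 1.86 RPM (H3.1K36M) against 2.97 RPM (H3.1WT), which made H3.3K36M 2.14-fold higher (1.86 to 2.47). It lay in a run, described next, that was high as a whole. Chromosome X held 2 of the 7 bins that were higher, chrX:141900001-141910000 and chrX:143780001-143790000. There the whole set had 169 bins, and the median log2 ratio over all bins was 0.16. Nothing is read from these counts. Bins of this kind were listed after their values were seen.

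Of the runs of at least 30 kb, 878 in all, the highest ratio belonged to chr18:69750001-69780000, with 11.4 RPM (H3.3K36M) against 6.56 RPM (H3.3WT), a ratio of 1.74 (1.60 to 1.90). H3.1 was 1.92 RPM (H3.1K36M) against 2.47 RPM (H3.1WT) there. The run at chr3:102270001-102340000 spanned 70 kb and had 13.1 RPM (H3.3K36M) against 7.93 RPM (H3.3WT), 1.65-fold higher (1.57 to 1.73). At chr17:78760001-78820000, 60 kb long, the ratio was 1.60, with 14.2 RPM (H3.3K36M) against 8.85 RPM (H3.3WT), where H3.1 differed the same way, with 3.55 RPM (H3.1K36M) against 2.74 RPM (H3.1WT). Both remaining runs of the top 5 lay on chromosome 13, at chr13:72750001-72780000 and chr13:46790001-46820000, and were 1.58-fold and 1.56-fold higher. Over all bins of their chromosomes, the median log2 ratio was 0.36 (chromosome 18), 0.077 (chromosome 3), 0.18 (chromosome 17) and 0.29 (chromosome 13). The folds of the runs include such shifts of the whole chromosome.

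At the other end, chr10:99510001-99540000 had 6.49 RPM (H3.3K36M) against 10.1 RPM (H3.3WT), 1.55-fold lower (1.42 to 1.70), with near-equal H3.1 at 2.29 RPM (H3.1K36M) and 2.34 RPM (H3.1WT). At chr11:21210001-21240000 H3.3K36M was 5.78 RPM against 8.93 RPM (H3.3WT), and H3.1K36M was 2.18 RPM against 2.88 RPM (H3.1WT). The run at chr15:43070001-43110000 had the highest levels of the lower 5, with 9.75 RPM (H3.3K36M) against 14.8 RPM (H3.3WT). H3.1 differed the same way there, with 3.22 RPM (H3.1K36M) against 4.25 RPM (H3.1WT). The other 2, at chr3:19110001-19140000 and chr14:58300001-58330000, were 1.49-fold and 1.47-fold lower. Over all bins, the median log2 ratio was -0.20 on chromosome 15. It was 0.038 on chromosome 10, -0.036 on chromosome 11, 0.077 on chromosome 3 and 0.064 on chromosome 14. All of these runs were picked for their ratio, which overstates it.

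Differences between K36M and WT were shared by neighbours. Over 3989 touching pairs of the bins, Pearson's r of the log2 ratio was 0.539 for H3.3K36M over H3.3WT and 0.394 for H3.1K36M over H3.1WT. Neighbouring bins come from the same libraries and are not independent, so these values are descriptions.

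The bins were spread unevenly over the chromosomes. Chromosome 11 had the highest share, with 844 of its 11526 bins (7.32%), and chromosome X the lowest, with 169 of 14867 (1.14%), so that the share on chromosome 11 was 6.44 times that on X. Chromosomes 5 and 7 followed chromosome 11, with 5.66% and 5.33%. Among the autosomes the lowest shares were on chromosome 18 (2.44%) and chromosome 13 (2.91%). The share of bins with a peak had another order, with 7.66% on chromosome 19, 6.93% on chromosome 15 and 6.13% on chromosome 11. Over the 20 chromosomes, Pearson's r between the shares was 0.262, a description of points that share all 4 libraries. On chromosomes 5, 7 and X, 21.0%, 21.5% and 22.8% of the H3.3-rich bins held a peak, against 45.1% on chromosome 15. Runs of at least 50 kb held 23.8% of the bins on chromosome 6 and 23.1% on chromosome 5, but 2.42% on chromosome 18 and 2.96% on chromosome X. With each chromosome cut into 10 equal segments, the first had the lowest share, 3.08%, and the others lay between 3.80% and 4.79%.

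Chromosomes also differed in H3.3K36M over H3.3WT. In the peak-free bins the median on the log2 scale was 0.28 on chromosome 13 and 0.24 on chromosome 18, where 84.4% and 83.6% of them were above 0, and -0.20 on chromosome 15, where 18.2% were. The SD over the chromosomes was 0.11 for H3.3 and 0.04 for H3.1. The same chromosomes stood out over all bins, where the medians of chromosomes 13, 18 and 15 were 0.29, 0.36 and -0.20, and Pearson's r between the medians was 0.898 over the 20 chromosomes. The bins are part of all bins, and both medians come from the same libraries. The median in the peak-free bins was below that of all bins on each of the 20 chromosomes, with differences from -0.17 on chromosome 12 to -0.004 on chromosome 15. All bins include many with low H3.3. Bins without a peak at 200 kb or more from one had a median ratio of 0.27, and their part was not tested.

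**Figure D5:**
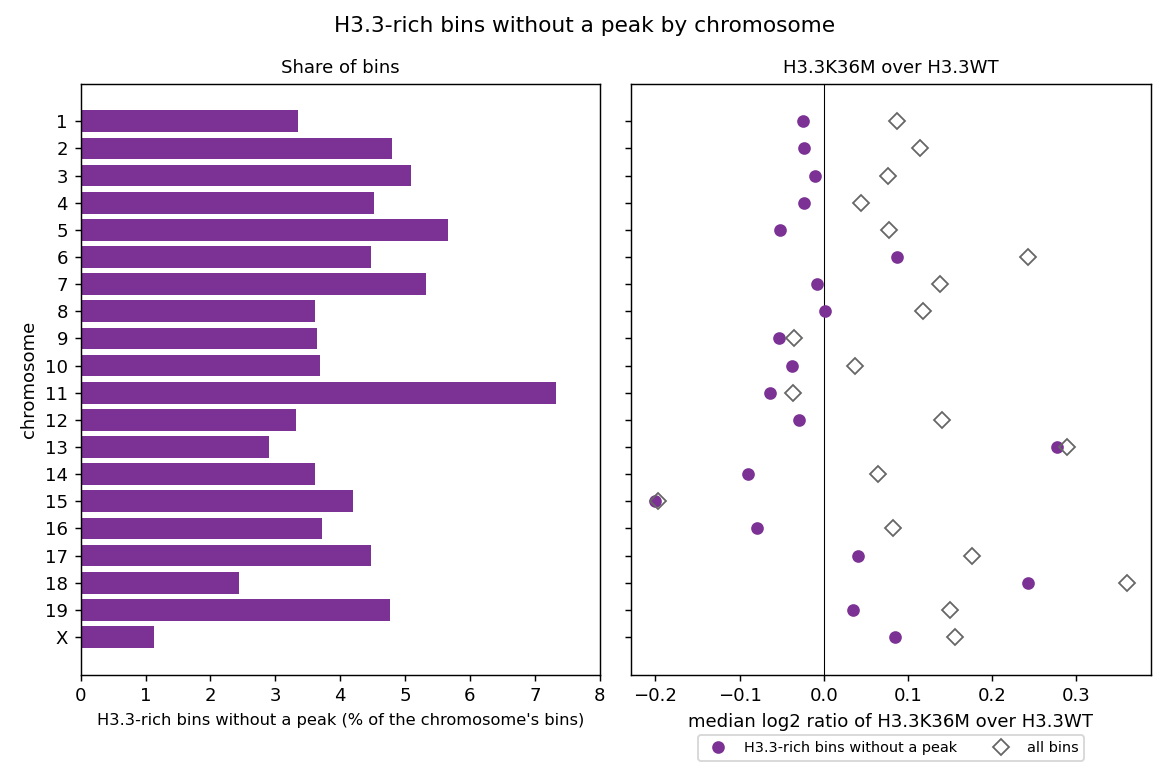
Left, share of each chromosome's bins that are H3.3-rich and without a peak (%), from 1.14% on X to 7.32% on chromosome 11. Right, H3.3K36M over H3.3WT (median of log2 values) by chromosome in those bins (filled circles) and in all bins (open diamonds); the circle lies left of the diamond on each chromosome, with chromosomes 13 and 18 highest and chromosome 15 lowest.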

How the data were processed

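HA ChIP-seq of tagged H3.3 and H3.1, K36M or WT, was read from a table of RPM per genomic bin that the authors deposited, with 2 lists of peak positions that hold no score. Bowtie 1.0.0 and mm9 were used, per the submitters' processing notes. Bin counting, duplicate removal, the peak caller, its control and its threshold are not given in the sources used here. Every RPM value was a whole multiple of the column's smallest step within 0.01 of a read, so reads were recovered. The steps were 0.0259 (H3.3K36M), 0.0215 (H3.3WT), 0.0241 (H3.1K36M) and 0.0283 RPM (H3.1WT).

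Of 253926 rows, the 10 kb rows on chromosomes 1 to 19 and X with a mean of at least 0.5 RPM were used. Ratios are log2 of RPM plus 0.1, and 2-fold is a rule of size. The fold of a named region is its RPM ratio, with a Clopper-Pearson (exact) interval at 95% from the reads; as no molecular identifiers are recorded, reads may repeat molecules. Named were the 10 longest runs, the 10 bins with the highest smaller ratio, of runs of at least 30 kb the 5 highest and 5 lowest in H3.3K36M over H3.3WT, the 5 bins farthest from a peak, and 3 bins on either side of the threshold. The choice of bins 2-fold apart between K36M and WT, of joined stretches and of bins with the highest signal was made after seeing their values.

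The rule for the bins, the named regions and the alternatives were chosen with earlier results of these data known. Bins carry no gene names and no sequence is printed, since the gene tables at hand are of GRCm38.p6. Coordinates are 1-based. Interval and ratio steps were tested on simulated data. Computation used Python 3.11.15 with pandas 2.3.3, numpy 2.4.6, matplotlib 3.10.9 and scipy 1.17.1.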

Additional observations from a re-analysis of the deposited data

How the results depend on the processing

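The results were recomputed under 12 alternatives. The number of bins was 10072, against 6573 with a pseudocount of 1 RPM, 22506 at 1.5-fold, 2186 at 3-fold and 20166 with ratios scaled to a median of no difference. The share of H3.3-rich bins without a peak was 66.1%, against 61.3%, 74.6%, 52.3% and 72.9% under the same alternatives and 54.3% where no peak was allowed within 10 kb. The share in runs of 50 kb or more was 16.9%, against 13.4%, 26.4%, 8.33% and 25.01%, with 18.4% when wider rows were kept and 15.7% with random portions of the reads. The share within 10 kb of a peak was 18.2%, against 17.4% at 1.5-fold and 17.2% at 3-fold, and has no value where no peak was allowed within 10 kb. H3.3K36M over H3.3WT had a log2 median of -0.014, against 0.014 (pseudocount of 1 RPM), -0.078 (1.5-fold), 0.056 (3-fold), -0.15 (scaled) and -0.027 (no peak within 10 kb), so its sign differed between settings. Scaling shifted that median over all bins by -0.11, and the H3.3 over H3.1 medians by 0.31 (K36M) and 0.45 (WT). The 20166 bins chosen after scaling, minus all bins, gave -0.15, and the 10072 bins chosen as deposited gave -0.12. Scaling moves this ratio equally in every bin, so these values differ only through the set of bins. Beyond how each alternative is built, the cause was not tested. All 10072 bins remained under scaling, which is fixed by its build, since it raised both H3.3 over H3.1 ratios of every bin. The other 5 results gave 60 values, of which 21 moved. Bins 2-fold lower in H3.3K36M than in H3.3WT numbered 9, and 0 to 114 across the alternatives, and those 2-fold higher 7, and 0 to 25. The count of bins with an H3.1K36M peak was 0 under every alternative, from which nothing is read, as such peaks are rare and the choice disfavours them. No paired analysis was possible because each line has 1 HA library and no test was made. With 125 and 107.5 reads in the median bin, H3.1 limits the precision of the ratios.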

Other observations

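On chromosome 7 no H3.3K36M peak is listed after position 144498400, although the chromosome runs on for 8.03 Mb, and on the other chromosomes the stretch after the last listed peak was at most 1.70 Mb. That stretch holds 766 bins, of which 49 (6.40%) were H3.3-rich. Their medians were 8.83 RPM (H3.3K36M), 8.86 RPM (H3.3WT), 3.01 RPM (H3.1K36M) and 2.80 RPM (H3.1WT). On the rest of chromosome 7, 22.7% of 843 H3.3-rich bins held a peak. It is not known whether the peak list is complete past that position.

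The highest signal among the peak-free H3.3-rich bins was at chrX:166410001-166420000, with 114 RPM (H3.3K36M), 119.9 RPM (H3.3WT), 34.2 RPM (H3.1K36M) and 30.3 RPM (H3.1WT). All 4 libraries were far above their medians there. Its neighbour chrX:166400001-166410000 had 35.0, 39.4, 12.3 and 12.3 RPM in the same order. Away from chromosome X the highest was chr11:48860001-48870000, with 26.6, 25.5, 5.74 and 6.93 RPM. Past the last listed peak of chromosome X, 20 of 100 bins were H3.3-rich.

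Rows wider than 10 kb, left out above, were read as mean RPM per 10 kb. Of 3605 such rows with enough signal, 189 (5.24%) met the same rule. When a random portion of the reads chose the bins, 88.3% of those chosen were also chosen by all reads. All reads include that portion, so much of this overlap is built in. On the log2 scale the median of H3.3K36M over H3.1K36M was 1.43 in the portion that chose and 1.42 in the other. Both portions come from the same libraries, so these values reflect counting error and say nothing of replicates.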
